A study of Rattus norvegicus with 30 samples.

Results

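Messenger RNA of 10 interleukin-1 (IL-1) family and inflammasome genes was followed in rat lung during severe acute pancreatitis (SAP) and its treatment. The genes were Il1a, Il1b, Il1rn, Il1r1, Il1r2, Il1rap, Il18, Il33, Nlrp3 and Casp1, taken from a list of symbols, and each symbol matched 1 row among the 22914 genes counted. All 10 had enough reads to be tested, with a lowest count in any library of 75 for Il1a and a highest of 12276 for Il1r2.

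The libraries came from the lungs of 30 male Sprague Dawley rats, 8 weeks old, with 3 rats in each of 10 groups taken 6 or 24 hours after an operation. In the Sham groups the pancreas was moved only slightly, and in the Con groups sterile saline was run backwards into the biliopancreatic duct. The SAP, DEX and Emo groups instead received 5.0% sodium taurocholate, a bile salt, by that route, which injures the pancreas and then the lung. DEX rats were given dexamethasone, a synthetic glucocorticoid, intravenously at 10 mg/kg, and Emo rats were given emodin, a plant anthraquinone, into the stomach. Both drugs were given 2 and 12 hours after surgery, so that rats studied at 6 hours had had 1 dose. The emodin dose is 10 mg/kg in the sample descriptions and 40 mg/kg in their protocol. Rats not given a drug received its vehicle, saline into a vein or carboxymethylcellulose into the stomach. All groups shared the fasting, the anaesthesia and an operation, which in the Sham groups did not include the infusion, and the lungs were flushed through the pulmonary artery before freezing. The model is therefore of whole lung after a chemical pancreatitis of 1 sex, and no group received a drug without taurocholate.

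IL-1 alpha and IL-1 beta are the founding cytokines of the family, and both signal through the receptor Il1r1 together with the accessory chain Il1rap. Il1rn encodes the receptor antagonist, which occupies Il1r1 without signalling, and Il1r2 encodes a decoy receptor without a signalling domain that neutrophils carry in abundance. IL-1 beta and IL-18 are made as inactive precursors, which caspase-1 cuts after it has been recruited to an inflammasome built on a sensor such as Nlrp3, whereas IL-33 is kept in the nuclei of lung epithelial and endothelial cells and is released as an alarm signal when they are damaged. These steps of cutting and release leave no trace in the RNA measured here.

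Reads counted on genes ranged from 16813949 to 34692306 per library. Alveolar type 2 markers were abundant in every library (8 genes, summed level 25100 to 47900 FPKM, that is fragments per kilobase of gene and of library depth). A list of 11 neutrophil markers, among them S100a8, S100a9, Mmp8, Cxcr2, Csf3r, Fcnb, Ngp, Camp, Mpo and Cd177, varied from 137 to 16500 FPKM in sum, and differed as much within some groups as between them. Its range was 215 to 9390 in Sham-24h, 137 to 1030 in Con-24h and 4670 to 16500 in SAP-24h, and with treatment 1050 to 3010 for DEX-24h and 4410 to 6750 for Emo-24h. At 6 hours it was 385 to 6010 in Sham-6h, 1000 to 3240 in Con-6h, 2110 to 4640 in SAP-6h, 1110 to 3140 in DEX-6h and 1680 to 4000 in Emo-6h. Of the 11 markers, Mpo was listed at 0 in some libraries. The summed level of 11 macrophage and monocyte markers lay between 385 and 963 FPKM over all libraries, with Marco listed at 0 in some of them. Single markers of this list were called, among them Cd14, a co-receptor for bacterial lipopolysaccharide, with a mean of 35.4 FPKM in Sham-24h, 101 in SAP-24h and 39.2 in Emo-24h. A larger share of a cell type and more RNA per cell cannot be told apart in bulk lung. According to the mapping summary of the study, a lower share of reads mapped to a single place in every library of a taurocholate rat than in the Sham and Con libraries, so that for comparisons with Sham or Con this difference and taurocholate cannot be told apart. At 24 hours the same share was lowest in the SAP rats, higher in each DEX rat and highest in each Emo rat, and at 6 hours it was lower in each DEX rat than in each SAP rat. In the comparisons of these groups it therefore cannot be told apart from the drug either. This covers all calls between them at 24 hours, among them those of Il33, Nlrp3, Il1rn, Nlrc4, Naip6, Mefv, Cxcl2, Nfkbia and Vcam1. At 6 hours it covers the difference of Il33 between DEX-6h and SAP-6h. The share was also higher in each DEX-24h rat than in each DEX-6h rat. For the fall of Il1a between those groups it cannot be told apart from time.

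Il1a and Il1b lie next to each other on chromosome 3, and Il1rn is on the same chromosome beside Il1f10. Their promoters are shown because they share that chromosome, and those of Il33 because it had the most calls. In the RefSeq annotation of the build GRCr8, which is not the build of the counts, 9 of the 10 genes had a promoter entry, with Il33 and Il1rap having 2 each. The 250 bases before the transcription start are given 5′ to 3′ on the strand of the gene, with matches to the searched motifs in capitals. The Il1a promoter (chr3:136990018-136990267, minus strand) has TATAAA 32 to 27 bases before the start, the same letters on the opposite strand at 237 to 232 bases, and the AP-1 motif TGACTCA at 12 to 6 bases. The Il1b promoter (chr3:137036582-137036831, minus strand) has TATAAA at 60 to 55 bases. That of Il1rn (chr3:27520072-27520321, plus strand) has it on the opposite strand at 64 to 59 bases. The first Il33 promoter (chr1:237115323-237115572, plus strand) holds none of the motifs, and the second (chr1:237134696-237134945, plus strand) holds TATAAA at 29 to 24 bases and TTGCATAA, a match to the C/EBP motif TTGCNNAA, at 92 to 85 bases.
Il1a: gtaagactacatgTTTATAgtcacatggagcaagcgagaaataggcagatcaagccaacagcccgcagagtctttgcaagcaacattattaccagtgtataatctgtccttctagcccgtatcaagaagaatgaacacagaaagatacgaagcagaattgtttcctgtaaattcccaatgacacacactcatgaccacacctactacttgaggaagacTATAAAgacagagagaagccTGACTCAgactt
Il1b: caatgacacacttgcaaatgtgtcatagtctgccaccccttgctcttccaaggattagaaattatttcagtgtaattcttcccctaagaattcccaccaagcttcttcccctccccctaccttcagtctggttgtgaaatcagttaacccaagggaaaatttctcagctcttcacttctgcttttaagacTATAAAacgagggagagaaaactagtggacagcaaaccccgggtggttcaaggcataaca
Il1rn: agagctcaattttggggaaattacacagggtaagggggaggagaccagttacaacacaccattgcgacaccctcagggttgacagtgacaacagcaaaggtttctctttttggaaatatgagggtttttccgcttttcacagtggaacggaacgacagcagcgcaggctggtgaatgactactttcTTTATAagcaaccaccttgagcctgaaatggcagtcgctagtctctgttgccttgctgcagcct
Il33, first promoter: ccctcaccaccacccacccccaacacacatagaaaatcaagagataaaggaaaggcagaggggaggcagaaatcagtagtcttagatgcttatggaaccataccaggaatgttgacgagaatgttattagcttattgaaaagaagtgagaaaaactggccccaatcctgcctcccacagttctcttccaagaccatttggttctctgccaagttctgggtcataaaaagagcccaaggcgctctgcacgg
Il33, second promoter: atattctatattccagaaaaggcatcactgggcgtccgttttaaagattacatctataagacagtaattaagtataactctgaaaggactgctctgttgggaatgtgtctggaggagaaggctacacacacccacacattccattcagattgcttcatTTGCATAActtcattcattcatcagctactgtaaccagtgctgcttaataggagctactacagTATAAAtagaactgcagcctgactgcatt

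Motifs were searched on both strands in 33469 promoters of the same length. TATAAA was found in 4 of the 9 genes and in 12.9% of all promoters. The NF-kB motif was found in 2, Il1r1 and Il1rap, against 3.54% of all promoters, and the 2 Il1rap promoters overlap and share their match. C/EBP (9.22% of all promoters), AP-1 (TGACTCA or TGAGTCA, 4.05%) and PU.1 (AGGAAGT, 7.08%) motifs were found in 1 gene each, the last in Casp1. The glucocorticoid receptor half-site AGAACA, present in 17.5% of all promoters, was not among the letters of these windows.

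Over the 21 comparisons of groups, 20 differences of single genes were called, that is had an adjusted p under 0.05 and at least a 2-fold change. Differences are log2 fold changes of normalised counts from edgeR, given with their standard error (SE) and an adjusted p (quasi-likelihood test, Benjamini-Hochberg over 15934 genes). The most calls were in SAP-24h vs Con-24h, with 6 of the 10 genes higher, where 6.91% of all genes were called (3.65% higher). Against Sham-24h, the control that the study chose, 1 of 10 was called in SAP-24h, as higher (5% of all genes, 1.98% higher), and 6 of the 10 had an unadjusted p under 0.05, all higher (28.4% of all genes, 14.3% higher). DEX-24h vs SAP-24h had 3 called, all lower (3.73% of all genes, 2.55% lower), and Emo-24h vs SAP-24h had 0 (3.19%, 1.26% lower), with 4 at an unadjusted p under 0.05 (26.3%) and 0 by DESeq2. Emo-24h vs DEX-24h had 2, both higher with emodin (5.06%, 3.82% higher and 1.24% lower). At 6 hours, DEX-6h vs SAP-6h had 1 (0.515%), Emo-6h vs DEX-6h had 1, higher with emodin (1.41%, 0.759% higher and 0.653% lower), SAP-6h vs Con-6h had 1 (0.163%) and DEX-6h vs Sham-6h had 2 (3.97%). Neither SAP-6h vs Sham-6h (0.22%) nor Emo-6h vs SAP-6h (0.0251%) had any by edgeR, with 1 gene each at an unadjusted p under 0.05 (13.1% and 13.5%). DESeq2 called 1 in the former and 0 in the latter, where it gave no adjusted p for Il1a, the gene concerned. The remaining calls were 1 in DEX-24h vs Sham-24h (4.15%), 1 in Con-24h vs Sham-24h, lower in Con-24h (1%, 0.916% lower) and 1 in DEX-24h vs DEX-6h (7.14%). Emo-6h vs Sham-6h (0.477%), Emo-24h vs Sham-24h (0%) and Con-6h vs Sham-6h (0%) had 0 of the 10 by edgeR, by DESeq2 and at an unadjusted p under 0.05 (22.6%, 3% and 8.61%). From 6 to 24 hours the SAP rats had 0 called (2.42%) and the Emo rats 0 (9.41%), with 4 and 2 at an unadjusted p under 0.05 (24.8% and 44.1%) and 0 and 1 by DESeq2. The Sham rats had 0 (0.257%) and the Con rats 0 (0.00628%), with 0 and 2 at an unadjusted p under 0.05 (20.4% and 10.5%) and 0 and 1 by DESeq2. Rats were the replicates throughout.

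**Figure D1:**
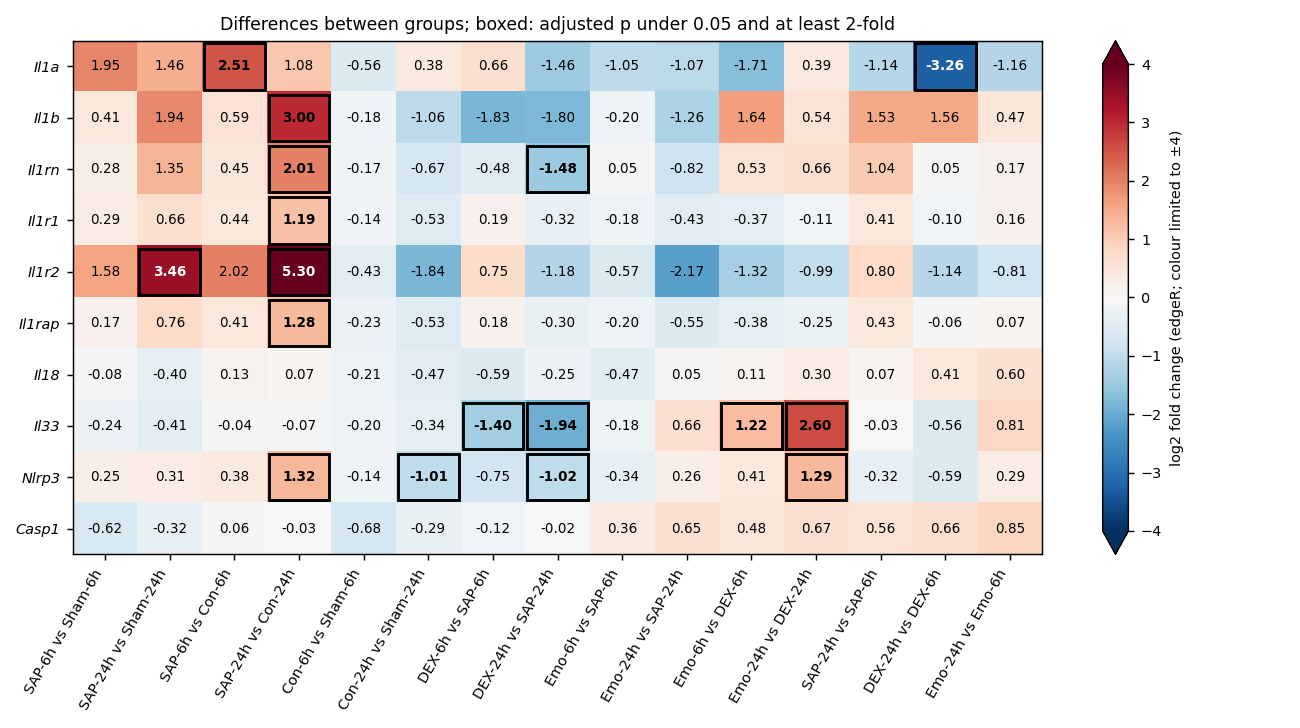
Log2 fold changes of the 10 genes (rows) in the comparisons named (columns), from edgeR over all 30 libraries. Red is higher and blue is lower in the first group, and boxes mark differences with an adjusted p under 0.05 and at least 2-fold: among them are those of Il33 where DEX is compared with SAP or Emo, and 6 rows of SAP-24h vs Con-24h.

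As a group, the 10 genes had a median log2 fold change of 0.71 in SAP-24h vs Sham-24h and 1.23 in SAP-24h vs Con-24h, where the median over all genes was -0.03 and -0.01. In DEX-24h vs SAP-24h all 10 fitted values were below 0, with a median of -1.10 against 0.00 for all genes. Only 3 of them were called, and Casp1 had about the same mean in both groups, at 20.4 FPKM in DEX-24h and 19.0 in SAP-24h. The 11 neutrophil markers were also all below 0 there (median -2.44, 3 called). In SAP-24h vs Sham-24h they had a median of 1.69 (0 called), 2 of the 11 macrophage and monocyte markers, Cd14 and Marco, were called as higher, and 6 of the 7 T cell markers were called as lower (median -1.98, 5% of all genes called). Also called as lower there were 2 of the 6 fibroblast markers (median -0.58), 1 of the 6 alveolar type 1 markers (-0.71) and 1 of the 6 endothelial markers (-0.19). In SAP-24h vs Con-24h 10 of the 11 neutrophil markers were called as higher (median 3.72), with Cd14 and Marco again higher and all 7 T cell markers lower (median -2.07). The part of these markers in the values of the 10 genes was not tested. The corresponding medians for emodin at 24 hours were -0.49 against SAP-24h and 0.47 against DEX-24h. In Emo-24h vs SAP-24h the 11 neutrophil markers were all below 0 (median -0.87, 1 called) and the 7 T cell markers all above 0 (median 1.58, 2 called), and Cd14 was called as lower. In Emo-24h vs DEX-24h 6 of the 7 T cell markers were called as higher (median 2.20) and 6 of 8 rows of glucocorticoid response genes as lower (median -1.30), while 10 of the 11 neutrophil markers were above 0 (median 1.06, 0 called). Their part was not tested either. DEX-24h vs SAP-24h and SAP-24h vs Sham-24h share the SAP-24h rats, so their values are given side by side and were not related to each other. No gene had an effect of SAP, DEX or emodin that was called as different between 6 and 24 hours (0.0314%, 0.138% and 1.68% of all genes), and at an unadjusted p under 0.05 (12.6%, 13.6% and 23.4%) there was 1, Il1a under DEX. DESeq2 also called 0 of them.

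Il1a, which encodes IL-1 alpha, a cytokine active without cutting, was high at 6 hours in every rat given taurocholate and no drug or dexamethasone. Its level was 8.51, 6.95 and 2.10 FPKM in the Sham-6h rats and 5.06, 2.80 and 4.12 in Con-6h. It was 27.11, 17.10 and 20.70 in SAP-6h, 39.85, 33.69 and 29.50 in DEX-6h, and 12.32, 11.81 and 7.74 in Emo-6h. The SAP-6h, DEX-6h and Emo-6h values thus did not overlap with each other, DEX-6h lying highest and Emo-6h lowest of the 3. At 24 hours it was 2.53, 4.34 and 4.05 in Sham-24h, 9.63, 1.94 and 2.71 in Con-24h, and 9.99, 9.74 and 7.78 in SAP-24h. They were 5.50, 2.59 and 2.55 in DEX-24h and 4.63, 3.41 and 6.52 in Emo-24h. Each SAP-24h value was above all those of Sham-24h, DEX-24h and Emo-24h, while 1 Con-24h rat reached the SAP-24h range.

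The difference of Il1a was 2.51 ± 0.50 (SE) in SAP-6h vs Con-6h (5.68-fold, adjusted p = 0.0315), but this call was kept in only 1 of 6 fits with a rat left out (adjusted p 0.0394 to 0.232). It was 1.95 ± 0.49 in SAP-6h vs Sham-6h, with an adjusted p of 0.0897, which DESeq2 put at 0.00791. The sum of 4 red blood cell markers was 1840 to 2360 FPKM in SAP-6h, above each rat of Con-6h (388 to 1360) and Sham-6h (193 to 912). These markers had medians of 1.74 and 2.43 in the same comparisons (0 called, with 1 and 4 at an unadjusted p under 0.05), and their part was not tested. DEX-6h was above Sham-6h by 2.61 ± 0.50 (6.09-fold, adjusted p = 0.00235), a call that held in all 6 fits with a rat left out. The difference of DEX-6h from SAP-6h was 0.66, not called, with the 3 DEX-6h rats on top in FPKM but not in normalised counts. The difference between Emo-6h and DEX-6h was -1.71 ± 0.48 with an adjusted p of 0.0544, and was called by DESeq2 (0.00993) and with only those groups in the fit (0.0306), but in 0 of 6 fits with a rat left out. From 6 to 24 hours under dexamethasone Il1a fell by 3.26 on the log2 scale (SE 0.51, 9.58-fold, adjusted p = 0.000178), again in all 6 fits. In Emo-6h vs SAP-6h the value was -1.05 (adjusted p = 0.345, none given by DESeq2). It was -1.46 in DEX-24h vs SAP-24h (adjusted p = 0.0676) and 1.46 in SAP-24h vs Sham-24h (0.0515), both called by DESeq2 (0.0232 and 0.0157). The change of the DEX effect between the times was -2.12 ± 0.68 (adjusted p = 0.170), so a difference of the effect between times was not called.

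Il1b, the gene of the IL-1 beta precursor, varied more than its neighbour Il1a between rats of a group, with a within-group SD of 0.86 on the log2 scale against 0.51. Its values were 7.07, 33.33 and 8.37 FPKM in Sham-6h, 15.67, 22.88 and 5.18 in Con-6h, and 22.66, 24.76 and 14.44 in SAP-6h. In DEX-6h it was 6.83, 6.12 and 4.39, below each SAP-6h and Emo-6h rat, the latter at 18.37, 25.73 and 10.73. At 24 hours it was 30.17, 6.65 and 11.38 in Sham-24h, 11.10, 5.40 and 6.24 in Con-24h, and 28.95, 20.60 and 120.25 in SAP-24h. The value of SAP-24h replicate 3 was the highest of all 30 libraries, and its neutrophil marker sum of 16500 was also the highest. DEX-24h had 28.42, 16.10 and 6.21, and Emo-24h had 27.51, 16.05 and 33.65, both overlapping with SAP-24h.

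Only SAP-24h vs Con-24h was called for Il1b, with a log2 difference of 3.00 ± 0.73 (7.98-fold, adjusted p = 0.00572). Without SAP-24h replicate 3 it was 1.87 and the call was lost (adjusted p = 0.0594), as it was with only those groups in the fit (0.0655). The difference from Sham-24h was 1.94 ± 0.69 with an adjusted p of 0.0661 (0.0353 by DESeq2), and it ranged from 0.81 to 2.76 with a rat left out, called in 2 of 6 fits. DEX-6h vs SAP-6h gave -1.83 ± 0.70 (adjusted p = 0.250), which was called with only those groups in the fit (0.0339). DEX-24h vs SAP-24h gave -1.80 ± 0.69 (adjusted p = 0.112), and -0.68 without SAP-24h replicate 3. Of the 11 neutrophil markers, 10 were called as higher in SAP-24h vs Con-24h (median 3.72) and 0 in SAP-24h vs Sham-24h (median 1.69, 3 at an unadjusted p under 0.05). In DEX-24h vs SAP-24h 3 were called as lower, with a median of -2.44. The part of the neutrophil markers in the differences of Il1b was not tested.

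The balance between the founding cytokines differed by group. Il1a was 5.50 to 6.72 times Il1b in FPKM within the 3 DEX-6h libraries (mean 6.02 ± 0.63, SD), and 0.69 to 1.43 times in SAP-6h. In the other 8 groups the ratio lay between 0.0647 and 1.20. These ratios are a description and were not tested.

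**Figure D2:**
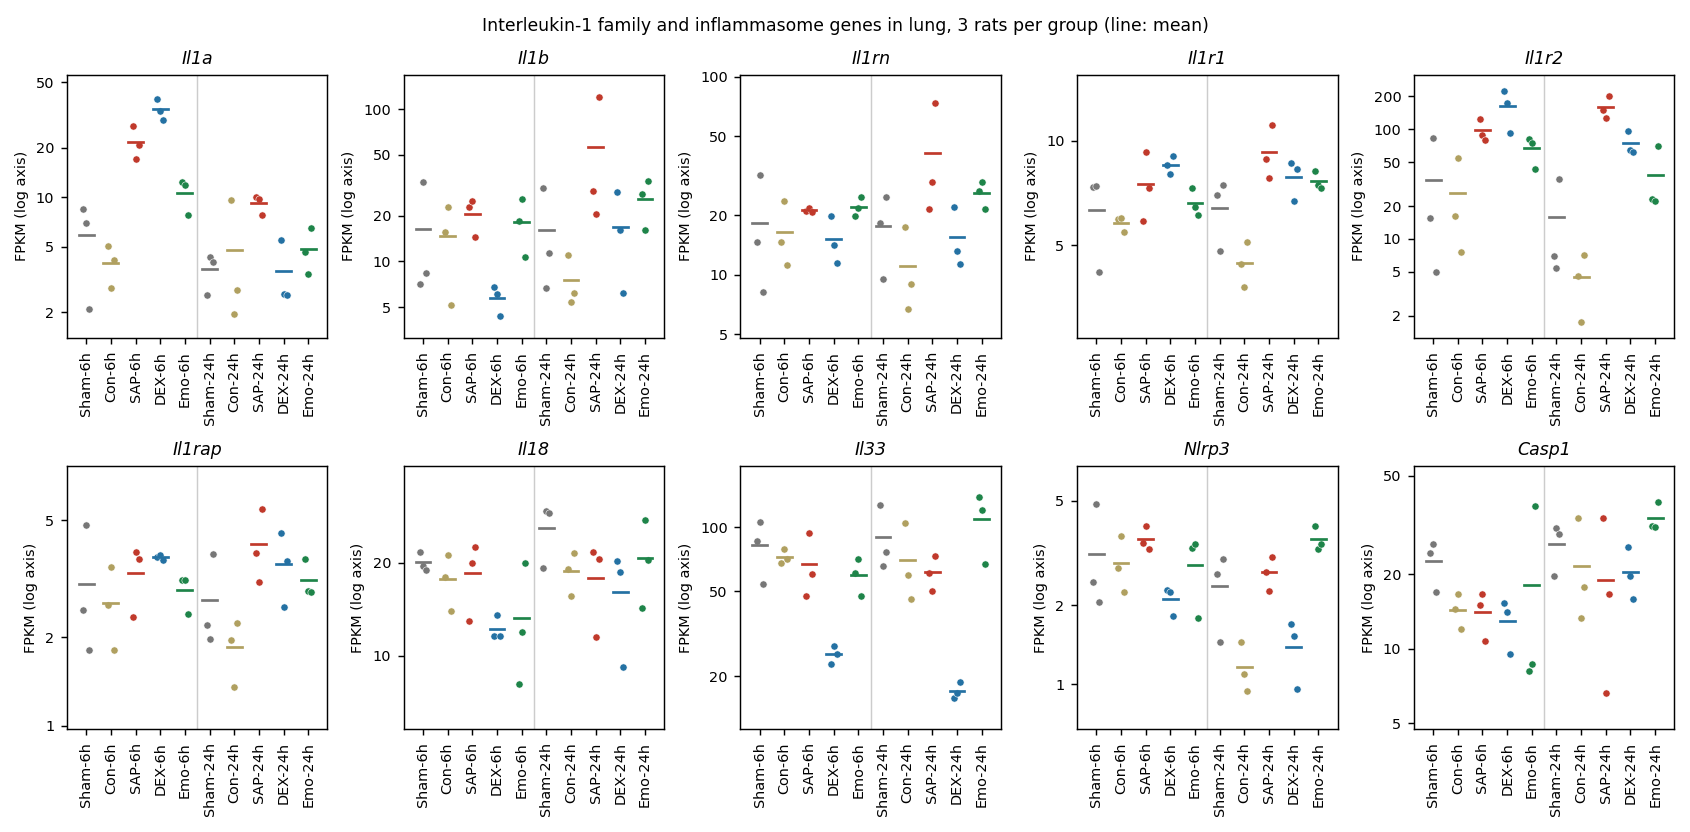
Level of each gene in FPKM on a log axis (vertical) for the 3 rats of each of 10 groups (horizontal; points are rats, lines are group means). Il1a is highest in DEX-6h, Il33 is lowest in DEX-6h and DEX-24h, and Il1r2 spans 1.74 to 226.61 FPKM.

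Il33, the gene of the alarm cytokine IL-33, had the most calls of the 10, with 6, and all 6 involved dexamethasone. Its level was 86.14, 106.42 and 54.44 FPKM in Sham-6h, 68.24, 78.89 and 71.00 in Con-6h, and 47.48, 94.57 and 60.51 in SAP-6h. In DEX-6h it was 22.93, 27.87 and 25.48, and in Emo-6h 60.82, 70.95 and 47.65. At 24 hours it was 127.55, 65.51 and 76.91 in Sham-24h, 104.93, 59.54 and 45.94 in Con-24h, and 60.98, 50.13 and 73.11 in SAP-24h. DEX-24h had 15.74, 16.64 and 18.71. All 6 DEX rats thus lay below the lowest of the other 24, which was at 45.94. Emo-24h had 138.95, 120.81 and 67.18, which includes the highest value of the series.

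Il33 was lower in DEX-24h than in SAP-24h by 1.94 on the log2 scale, a difference of -1.94 ± 0.30 (3.84-fold, adjusted p = 0.000561). Against Sham-24h the difference was -2.35 ± 0.31 (5.11-fold, adjusted p = 0.000134), and Emo-24h was above DEX-24h by 2.60 ± 0.31 (6.06-fold, adjusted p = 3.87e-05). These calls held in each of the 6 fits with a rat left out. At 6 hours the difference was -1.64 ± 0.30 from Sham-6h (adjusted p = 0.00160), held in 6 of 6 fits. It was -1.40 ± 0.30 from SAP-6h (adjusted p = 0.0247), which was lost in 4 of 6 such fits (highest adjusted p 0.185). Emo-6h vs DEX-6h was 1.22 ± 0.30 (adjusted p = 0.0262), lost in 5 of 6 (highest 0.132). SAP itself left Il33 uncalled, at -0.24 in SAP-6h vs Sham-6h and -0.41 in SAP-24h vs Sham-24h. Emo-24h vs SAP-24h was 0.66 ± 0.29 (adjusted p = 0.154), and Emo-24h vs Emo-6h was 0.81 ± 0.29 (adjusted p = 0.0359), which is under 2-fold (1.03 and called without Emo-24h replicate 3). The neutrophil marker sum of the DEX rats, 1050 to 3140, lay inside the range of the Sham and Con rats. At 24 hours, however, it was 1050 to 3010 in DEX-24h, below each rat of SAP-24h (4670 to 16500) and Emo-24h (4410 to 6750). S100a8 and S100a9 made up 65.2% to 96.9% of this sum over the libraries, and the mean of Cxcr2 was 22.8 FPKM in DEX-6h and 16.5 in SAP-6h, with 32.5 and 29.9 for Csf3r. The sum of 6 endothelial markers was 978 to 1150 FPKM in DEX-24h, above each rat of SAP-24h (867 to 939) and Emo-24h (801 to 971), against 849 to 1110 in Sham-24h. At 6 hours it was 1360 to 1530 in DEX-6h, 1170 to 1560 in SAP-6h, 1140 to 1660 in Emo-6h and 1130 to 1150 in Sham-6h. The sum of 6 fibroblast markers was 200 to 236 FPKM in DEX-24h and 203 to 275 in SAP-24h, and did not overlap with DEX-24h in Sham-24h (262 to 318) or Emo-24h (267 to 400). Of these markers 1, Pdgfra, was called as lower in DEX-24h vs SAP-24h and 1, Lum, as higher in Emo-24h vs DEX-24h. The summed level of 7 T cell markers, 5.84 to 12.9 FPKM in DEX-24h and 11.8 to 15.9 in SAP-24h, was low in both, and Emo-24h had 15.3 to 58.5, with 6 of the 7 called as higher in Emo-24h vs DEX-24h (3.82% of all genes). Glucocorticoid response genes (7 genes in 8 rows, among them Fkbp5 and Tsc22d3) summed to 1090 to 1520 FPKM in the DEX rats and 342 to 1180 in all others, with 1 row called as higher in DEX-24h vs SAP-24h and 6 as lower in Emo-24h vs DEX-24h (1.24% of all genes). The part of any of these markers in the Il33 differences was not tested.

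Il18, which encodes the other cytokine matured by caspase-1, was called in none of the comparisons with all rats, and without Emo-6h replicate 3 it was called in Emo-24h vs Emo-6h (1.01, adjusted p = 0.0315). Its mean ranged from 12.2 ± 1.1 FPKM (SD, n = 3) in DEX-6h to 25.8 ± 5.75 in Sham-24h. The DEX-6h rats, at 11.61, 13.49 and 11.56, were below the Sham-6h rats, at 21.69, 19.48 and 18.92, but the difference of -0.67 ± 0.32 had an adjusted p of 0.198. Over all contrasts its log2 values stayed between -0.67 and 0.60.

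Il1rn, the gene of the receptor antagonist, was highest on average in SAP-24h. It was 14.55, 31.94 and 8.14 FPKM in Sham-6h, 14.54, 23.61 and 11.19 in Con-6h, 20.93, 21.76 and 20.83 in SAP-6h, 19.82, 14.05 and 11.41 in DEX-6h, and 19.80, 21.59 and 24.77 in Emo-6h. At 24 hours it was 18.33, 9.53 and 24.67 in Sham-24h, 17.35, 6.67 and 8.93 in Con-24h, and 21.36, 29.42 and 73.37 in SAP-24h. As for Il1b, SAP-24h replicate 3 had the highest level of the series. DEX-24h had 22.03, 13.21 and 11.30 and Emo-24h 26.43, 29.36 and 21.40, so that only 1 DEX-24h rat reached the SAP-24h range.

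In SAP-24h vs Con-24h Il1rn was higher by 2.01 ± 0.46 (4.04-fold, adjusted p = 0.00407), a call that held in each of 6 fits with a rat left out and was lost with only those groups in the fit (0.0802). DEX-24h vs SAP-24h gave -1.48 ± 0.45 (2.79-fold, adjusted p = 0.0456), a call lost in 4 of the 6 fits, with only those groups in the fit (0.1743) and with no filter on low counts (0.0506), and without SAP-24h replicate 3 the value was -0.82 (adjusted p = 0.283). The difference from Sham-24h was 1.35 ± 0.45 (adjusted p = 0.0515), which DESeq2 called (0.0154). It was 0.69 without SAP-24h replicate 3 (adjusted p = 0.330) and was called in 3 of 6 fits that left out a rat.

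Il1r1 and Il1rap, the signalling receptor and its partner chain, had a narrower range than the decoy receptor, with group means of 4.44 to 9.25 FPKM for Il1r1 and 1.85 to 4.14 for Il1rap. Il1r1 was 8.89, 7.80 and 11.07 FPKM in SAP-24h, above 6.97, 4.81 and 7.46 in Sham-24h and 4.41, 3.79 and 5.12 in Con-24h. DEX-24h, at 8.61, 6.71 and 8.28, and Emo-24h, at 8.19, 7.46 and 7.30, overlapped with SAP-24h. The difference of Il1r1 was 1.19 ± 0.18 from Con-24h (2.27-fold, adjusted p = 0.000384) and 0.66 ± 0.18 from Sham-24h (adjusted p = 0.0209), the latter only 1.58-fold and so not called. Il1rap was 3.87, 3.09 and 5.47 FPKM in SAP-24h and 1.96, 1.36 and 2.23 in Con-24h, without overlap. It differed by 1.28 ± 0.31 (2.43-fold, adjusted p = 0.00621) there and by 0.75 ± 0.31 from Sham-24h (adjusted p = 0.108, and 1.14 and called without Sham-24h replicate 3). Both calls against Con-24h held in 6 of 6 fits with a rat left out, and that of Il1rap was lost with only those groups in the fit (adjusted p = 0.0592).

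Il1r2, the decoy receptor, covered the widest range of the 10 genes, with group means from 4.47 ± 2.67 FPKM (SD, n = 3) in Con-24h to 165 ± 67.5 in DEX-6h. Sham-6h had 15.42, 83.72 and 5.05, Con-6h 16.22, 55.42 and 7.55, and SAP-6h 125.81, 88.81 and 80.55. DEX-6h had 226.61, 175.09 and 92.75, and Emo-6h 82.49, 75.82 and 43.44. Thus DEX-6h lay above Emo-6h in every rat, and a single Sham-6h rat, replicate 2, with a neutrophil sum of 6010, reached the level of SAP-6h. At 24 hours Sham-24h had 7.05, 5.41 and 35.11, Con-24h 4.58, 1.74 and 7.08, and SAP-24h 151.61, 126.39 and 203.20. DEX-24h followed with 97.15, 65.12 and 62.54 and Emo-24h with 23.11, 22.27 and 70.95, every one of them below the SAP-24h rats.

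The log2 difference of Il1r2 in SAP-24h was 5.30 ± 0.95 from Con-24h (39.3-fold, adjusted p = 0.000928), held in 6 of 6 fits, and 3.46 ± 0.86 from Sham-24h (11-fold, adjusted p = 0.0129). The latter was lost without Sham-24h replicate 1 or 2 (highest adjusted p 0.0654) and with only those groups in the fit (0.1003), and ranged from 3.05 to 4.85. In the same comparison the neutrophil markers had a median of 1.69, and Sham-24h replicate 3, with the highest Il1r2 of its group, had a neutrophil sum of 9390 against 1550 and 215 in the other rats. Emo-24h vs SAP-24h was -2.17 ± 0.82 (adjusted p = 0.0944, and -3.03 without Emo-24h replicate 3) and DEX-24h vs SAP-24h was -1.18. Neither was called, though neither drug group overlapped with SAP-24h. Compared with Sham, the DEX rats had Il1r2 values of 2.33 ± 0.82 at 6 hours (adjusted p = 0.0732) and 2.27 ± 0.82 at 24 hours (0.102). Without Sham-6h replicate 2 the former was 4.07 (adjusted p = 0.00934), and without Sham-24h replicate 3 the latter was 3.68 (0.0264), both called, and DESeq2 called the former (0.0363). How much of these differences goes with neutrophil content was not tested.

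**Figure D3:**
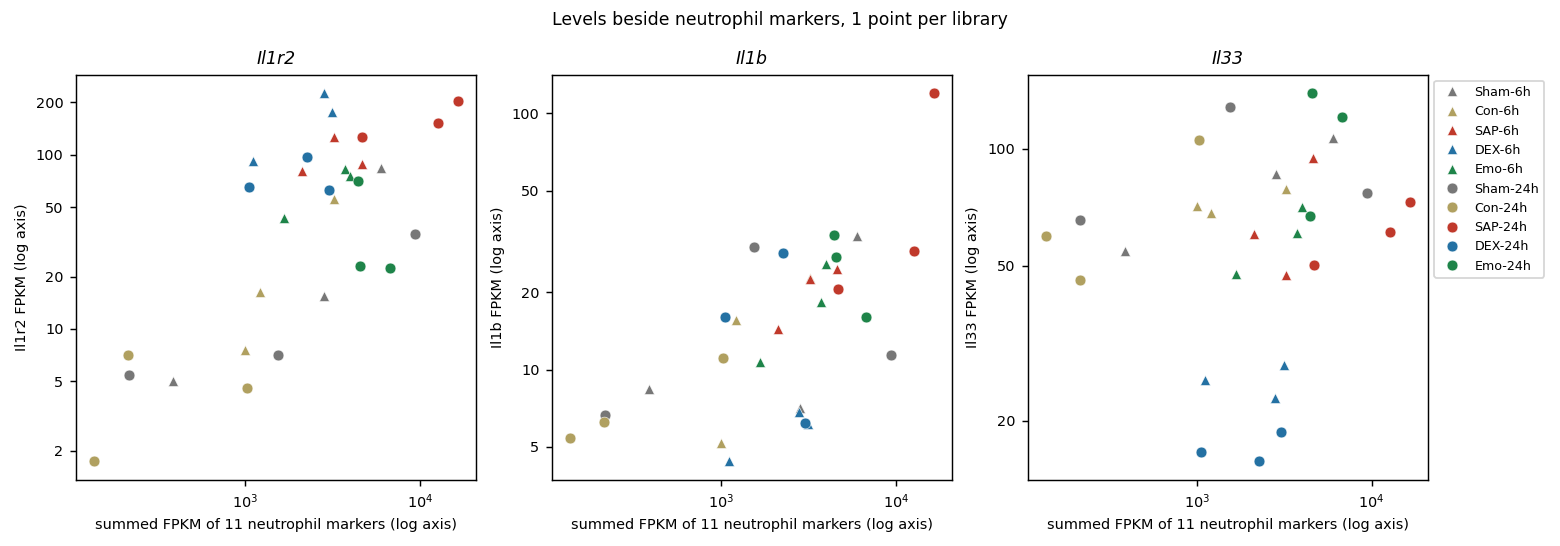
Level of Il1r2, Il1b and Il33 (vertical, FPKM, log axis) against the summed FPKM of 11 neutrophil markers (horizontal, log axis), 1 point per library, triangles at 6 hours and circles at 24 hours. Il1b is highest where the markers are, 16500 in SAP-24h replicate 3, Il1r2 is highest in a DEX-6h library at 226.61, and the 6 DEX libraries form the low band of Il33 at 15.74 to 27.87 FPKM.

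Within each library, decoy and signalling receptor were set against each other. Il1r2 was 16.2 to 18.4 times Il1r1 in SAP-24h (mean 17.2 ± 1.08, SD), 7.55 to 11.3 times in DEX-24h and 2.82 to 9.72 times in Emo-24h. In Sham-24h it was 1.01 to 4.71 times and in Con-24h 0.46 to 1.38 times. At 6 hours the means were 4.88 in Sham-6h, 4.44 in Con-6h, 14.0 in SAP-6h, 19.6 in DEX-6h and 10.0 in Emo-6h. The antagonist Il1rn relative to the sum of Il1a and Il1b had its lowest means in DEX-6h, 0.337 to 0.425 (mean 0.37), and SAP-6h, 0.421 to 0.593 (mean 0.51), which overlapped. In the other groups its means were 0.70 to 1.01. FPKM values are per length, so these ratios compare levels between genes, and no test was made of them.

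**Figure D4:**
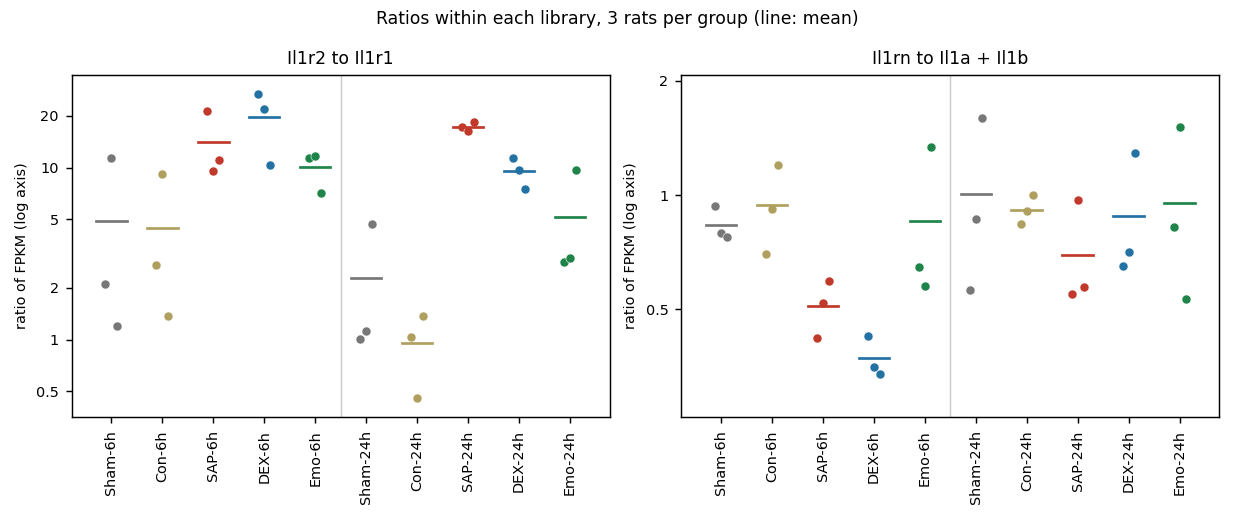
Ratio of Il1r2 to Il1r1 (left) and of Il1rn to the sum of Il1a and Il1b (right) in FPKM, on log axes, for the 3 rats of each group (points; lines are means). The SAP-24h rats sit close together at 16.2 to 18.4 on the left, and on the right DEX-6h has the lowest mean, with 1 SAP-6h rat inside its range.

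Nlrp3, the sensor of the inflammasome, was the least abundant of the 10, at 0.94 to 4.85 FPKM. It was 2.45, 4.85 and 2.06 in Sham-6h, 2.76, 3.68 and 2.24 in Con-6h, 3.45, 4.0 and 3.26 in SAP-6h, 2.29, 2.24 and 1.82 in DEX-6h, and 3.30, 3.42 and 1.79 in Emo-6h. At 24 hours it was 2.63, 1.45 and 3.00 in Sham-24h, 1.45, 1.09 and 0.94 in Con-24h, and 2.67, 2.27 and 3.05 in SAP-24h. DEX-24h had 1.69, 1.52 and 0.96, below each SAP-24h rat. Emo-24h had 4.0, 3.26 and 3.43, above each SAP-24h rat in FPKM. In normalised counts Emo-24h and SAP-24h overlapped, with 15.56 in Emo-24h replicate 2 and 15.83 in SAP-24h replicate 3. The DEX-24h rats were below each SAP-24h rat on that scale too. The fitted log2 difference in Emo-24h vs SAP-24h was only 0.26 ± 0.29 (adjusted p = 0.598) and was not called. The log2 difference in DEX-24h vs SAP-24h was -1.02 ± 0.30 (adjusted p = 0.0372), close to the limit of 2-fold and kept in 1 of 6 fits with a rat left out and lost with only those groups in the fit (0.1096). Emo-24h vs DEX-24h was 1.29 ± 0.30 (2.44-fold, adjusted p = 0.00874), lost only without DEX-24h replicate 3 (0.0715). SAP-24h vs Con-24h was 1.32 ± 0.30 (2.50-fold, adjusted p = 0.00411) and held in 6 of 6. Con-24h vs Sham-24h was -1.01 ± 0.30 (adjusted p = 0.0361), lost in 5 of 6 fits and also by DESeq2 and RLE scaling, where the change was under 2-fold. Of the 11 neutrophil markers 3 were called as lower in DEX-24h vs SAP-24h (2.55% of all genes) and 3 in Con-24h vs Sham-24h (0.916%), and their part was not tested.

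Casp1, the protease that matures IL-1 beta and IL-18, was called in none of the comparisons with all rats. It was 31.34, 31.23 and 39.25 FPKM in Emo-24h. In FPKM these rats were above the 3 rats of Sham-24h (19.63, 30.77 and 29.09) and of DEX-24h (25.70, 19.66 and 15.94). In normalised counts Emo-24h overlapped with Sham-24h. Sham-24h replicate 2, at 57.4, was above Emo-24h replicates 1 and 2, at 54.3 and 55.07. The DEX-24h rats stayed below the Emo-24h rats on that scale, the highest at 47.97. The fitted log2 differences of Emo-24h were 0.33 ± 0.50 from Sham-24h and 0.67 ± 0.50 from DEX-24h, neither called. SAP-24h, at 33.88, 6.61 and 16.62 FPKM, spread over most of the range of the series. In Emo-6h replicate 3 stood at 37.67 FPKM, with the others at 8.14 and 8.68. That rat, on which results of Il18 and Pycard also turn, had a macrophage and monocyte marker sum of 963 FPKM against 552 and 521 in the others, and a T cell sum of 80.6 against 38.9 and 41.9. The part of these markers was not tested. The log2 values over all contrasts lay between -0.74 and 0.85, the latter in Emo-24h vs Emo-6h (adjusted p = 0.195). Without Emo-6h replicate 3 that value was 1.97 and was called (adjusted p = 0.00540).

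The wider pathway was followed in 68 other genes, of which 58 were tested, over SAP vs Sham, DEX vs SAP, Emo vs SAP and Emo vs DEX at both times, with 21 calls. Of the other IL-1 family ligands and receptors (7 of 13 tested, among them Il1rl1, the receptor of IL-33) 0 were called in these 8 comparisons by edgeR. At an unadjusted p under 0.05 there were 6 of 56 gene-by-comparison values (10.7%), against 19.4% for all genes over the same 8 comparisons. Of the 6, 3 were of Il18bp, which encodes a soluble binder of IL-18 (1.25 ± 0.52 in Emo-24h vs DEX-24h, adjusted p = 0.153). Il1rl1 itself had values from -0.61 in SAP-24h vs Sham-24h to 0.75 in Emo-24h vs DEX-24h, without a call.

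Among the inflammasome and pyroptosis genes (17 of 19 tested), 2 were called in DEX-24h vs SAP-24h, both lower (2.55% of all genes), with a list median of -0.54. All 11 neutrophil markers were below 0 there (median -2.44, 3 called), and their part was not tested. Nlrc4, a sensor of bacterial flagellin, was 1.31 to 3.78 FPKM in SAP-24h and 0.26 to 0.80 in DEX-24h, a difference of -2.26 ± 0.39 (adjusted p = 0.00128). Mefv, which encodes the sensor pyrin of neutrophils and monocytes, differed by -1.86 ± 0.48 (adjusted p = 0.0204), a call kept in 3 of 6 fits with a rat left out. In Emo-24h vs DEX-24h 2 were called as higher (3.82% of all genes), Nlrc4 by 1.95 ± 0.39 (adjusted p = 0.00291) and Naip6, a partner of Nlrc4, by 1.94 ± 0.40 (adjusted p = 0.00409), with a list median of 0.64. In that comparison 6 of the 7 T cell markers were called as higher and 10 of the 11 neutrophil markers were above 0 (median 1.06, 0 called), and their part was not tested. The Nlrc4 and Naip6 calls held in all 6 fits. At 6 hours there were 2 calls, in Emo-6h vs DEX-6h (1.41% of all genes). There all 8 rows of glucocorticoid response genes were below 0 (median -0.58, 1 called). At an unadjusted p under 0.05, 5 of the 11 macrophage and monocyte markers were higher and 1 was lower (0 called). At that limit 3 of the 7 T cell markers were higher (0 called). Of the 11 neutrophil markers 5 were above 0 (median -0.26), with 1, Fcnb, called as higher. The part of these markers was not tested. Pycard, the adaptor that links Nlrp3 to caspase-1, was 14.66 to 19.74 FPKM in DEX-6h and 24.44 to 64.47 in Emo-6h (1.08 ± 0.28, adjusted p = 0.0384), and was called in 2 of 6 fits, its value being 0.46 without Emo-6h replicate 3. Txnip, a regulator of thioredoxin that can bind Nlrp3, went the other way, from 956.95 to 1230.26 FPKM in DEX-6h against 477.34 to 606.77 in Emo-6h (-1.01 ± 0.18, adjusted p = 0.00512), called in 4 of 6 fits. In SAP vs Sham 0 genes of this list were called at either time by edgeR, with 2 of 17 at 6 hours and 5 of 17 at 24 hours at an unadjusted p under 0.05 (13.1% and 28.4% of all genes).

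Genes of IL-1 receptor signalling (18 of 18 tested) had 1 call in SAP-24h vs Sham-24h (5% of all genes), 1 in Emo-6h vs DEX-6h (1.41%) and none in the other 6 comparisons by edgeR. Myd88, the adaptor that the receptor recruits first, ran from 36.33 to 55.63 FPKM after SAP and from 20.65 to 27.24 after the Sham operation at 24 hours (1.02 ± 0.18, adjusted p = 0.00199), close to the limit of 2-fold and called in 3 of 6 fits. Map3k8, a kinase of the same cascade, was 9.07 to 10.97 FPKM in DEX-6h and 4.27 to 4.87 in Emo-6h (-1.10 ± 0.25, adjusted p = 0.0202), called in 3 of 6 fits. In SAP-24h vs Sham-24h 10 of the 18 had an unadjusted p under 0.05, all higher, where 14.3% of all genes were higher at that limit, and the list median was 0.26. In Emo-24h vs SAP-24h 10 also did, all lower (13.3% of all genes), with a median of -0.23, and these comparisons share the SAP-24h rats. The neutrophil markers had medians of 1.69 (0 called) and -0.87 (1 called) in these comparisons and the T cell markers of -1.98 (6 of 7 called as lower) and 1.58 (2 called as higher), while Cd14 was called as higher in the first and lower in the second. In the first, 2 of the 6 fibroblast markers, 1 of the 6 alveolar type 1 markers and 1 of the 6 endothelial markers were also called as lower. In the second, 1 fibroblast marker was called as lower and 1 as higher. The part of all these markers in the list was not tested.

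Genes that IL-1 induces in many cells (16 of 18 tested) gave 4 calls in SAP-24h vs Sham-24h, all higher (1.98% of all genes), with a list median of 1.17 against -0.03 for all genes. In the same comparison the 11 neutrophil markers were all above 0 (median 1.69, 0 called), 2 macrophage and monocyte markers were called higher and 6 of the 7 T cell markers were called lower (median -1.98). Of those 2, Marco was at most 0.86 FPKM in SAP-24h. Of the fibroblast markers 2 of 6 were called lower, as were 1 of 6 alveolar type 1 and 1 of 6 endothelial markers. The part of all these markers in these values was not tested. Cxcl2, a neutrophil-attracting chemokine, ran from 1.13 to 10.79 FPKM after SAP against 0.51 to 0.74 for Sham, a difference of 3.52 ± 0.64 (adjusted p = 0.00203) that held in 6 of 6 fits. Its relative Cxcl1 was 6.75 to 119.15 FPKM in SAP-24h against 10.86 to 19.97 with Sham, an overlap between groups (2.15 ± 0.60, adjusted p = 0.0229). Without SAP-24h replicate 1 the Cxcl1 value was 0.75 and no longer called, and the call was also lost without Sham-24h replicate 2 or 3. Il6, which encodes the cytokine IL-6, was 0.08 to 11.04 FPKM in the SAP-24h rats, against 0.06 to 0.11 with Sham, 0.03 to 0.06 with dexamethasone and 0.00 to 0.16 with emodin. Its calls for SAP-24h against the Sham rats (adjusted p = 0.0141), and for dexamethasone (0.0116) and emodin (0.0208) against SAP-24h, were each lost without SAP-24h replicate 1, which held the 11.04, and in 1 to 3 other fits (highest adjusted p 0.328, 0.227 and 0.348). Cxcl6, another chemokine of the group, ran from 0.22 to 1.55 FPKM after SAP against 0.04 to 0.18 for Sham, called in 1 of 6 fits.

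In DEX-24h vs SAP-24h 4 of the induced genes were called as lower (2.55% of all genes), and so were 3 of the 11 neutrophil markers, whose part was not tested. Cxcl1 differed by -2.24 ± 0.60 (adjusted p = 0.0250; -0.82 without SAP-24h replicate 1), Cxcl2 by -2.11 ± 0.60 (adjusted p = 0.0316) and Sele, the endothelial E-selectin, by -3.49 ± 1.08 (adjusted p = 0.0480; -5.07 to -2.27 with a rat left out), and the fourth was Il6. Cxcl1, Sele and Il6 were called in 3 of 6 fits each and Cxcl2 in 2 of 6. In Emo-24h vs SAP-24h 2 were called as lower (1.26% of all genes), Cxcl2 by -2.36 ± 0.61 (adjusted p = 0.0210, called in 2 of 6 fits) and Il6. The neutrophil markers were all below 0 there (median -0.87, 1 called), Cd14 was called as lower and 2 T cell markers as higher, and their part was not tested. Emo-24h vs DEX-24h had 1 in each direction, both held in 6 of 6 fits, beside the 6 T cell markers called as higher and the 6 glucocorticoid response rows called as lower, whose part was not tested. Nfkbia, the inhibitor of NF-kB, was 596.84 to 648.25 FPKM with dexamethasone and 131.85 to 343.37 with emodin (-1.61 ± 0.35, adjusted p = 0.00544). Vcam1, an endothelial adhesion molecule, was 3.99 to 5.91 FPKM with dexamethasone and 14.88 to 22.01 with emodin (1.77 ± 0.37, adjusted p = 0.00402). At 6 hours the only call, in Emo-6h vs DEX-6h (0.759% of all genes higher), was Icam1, a related molecule. In the same comparison the 8 glucocorticoid response rows were all below 0 (1 called). At an unadjusted p under 0.05, 5 of the 11 macrophage and monocyte markers were higher and 1 was lower, and 3 of the 7 T cell markers were higher. The part of these markers was not tested. Icam1 was 29.15 to 55.52 FPKM in DEX-6h and 95.65 to 109.19 in Emo-6h (1.20 ± 0.26, adjusted p = 0.0148), called in 5 of 6 fits.

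For each of the 10 genes, the genes with the most similar pattern over the 30 libraries were taken as the 3 with the highest Pearson r of log2(FPKM + 1), among 12368 genes with a mean of at least 1 FPKM. These r values describe libraries that share groups, cell content and depth, and carry no test. Il1r2 was followed most closely by Agpat9 (r = 0.93), the chemokine receptor Cxcr2 (r = 0.93) and Alox5ap (r = 0.91), which activates leukotriene synthesis. After the group means were removed their r with Il1r2 was still 0.78, 0.85 and 0.89. For Nlrp3, Ncf4 (r = 0.88), a subunit of the phagocyte oxidase, and Emilin2 (r = 0.85) were among the 3. Cxcr2 is also on the neutrophil marker list. Il1rn was closest to Exo5 (r = 0.89), Samsn1 (r = 0.87) and Mefv (r = 0.87), and Il1b to Il1rn itself (r = 0.82), Ppp1r3b (r = 0.80) and Exo5 (r = 0.80).

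The receptor chains were near each other, since Il1r1 was closest to Il1rap (r = 0.88), then to Ifitm6 and Ampd3 (both r = 0.86), and Il1rap to Ampd3 (r = 0.88), Il1r1 and Bmx (r = 0.86). Il33 was closest to Ets1 (r = 0.90), a transcription factor of lymphocytes and endothelium, Stk4 (r = 0.88) and Stap1 (r = 0.87). For Il1a the closest were Slc25a15 (r = 0.89), Got1 (r = 0.86) and Apold1 (r = 0.85), but within groups the r was 0.29, 0.30 and 0.54. Casp1 was closest to Pnpt1 (r = 0.90), to its neighbour on chromosome 8, the inflammatory caspase Casp4 (r = 0.90), and to Psma4 (r = 0.89), and these were 0.92, 0.88 and 0.87 within groups. Il18 had the lowest best value, 0.79 with Tstd3, followed by Spic (r = 0.77) and LOC681325 (r = 0.76).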

How the data were processed

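Lung RNA-seq of 30 rats was analysed. The authors deposited read counts per gene, as unnormalized whole numbers, and FPKM with 2 decimals, which is scaled by gene length and library depth. They clipped reads, mapped them with TopHat2 (2 mismatches) to the rat genome they call rat_ensembl_v6, dropped reads with several positions and counted the rest; the counting program is not given in the sources used here. The submitters' processing notes name bcl2fastq, TopHat2 and edgeR without versions.

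Tests used the counts: R 4.3.3, edgeR 4.0.16 (limma 3.58.1), filterByExpr (minimum count 10, total 15; 15934 of 22914 genes), TMM and 1 quasi-likelihood model of 10 groups (20 residual degrees of freedom), with Benjamini-Hochberg adjustment. Calls needed at least a 2-fold change with an adjusted p under 0.05, and SE is the log2 fold change divided by the square root of F. Levels, ratios and correlations used FPKM (Python 3.11.15, pandas 2.3.3, numpy 2.4.6, scipy 1.17.1, matplotlib 3.10.9). Named were the 10 genes, the called genes of each pathway list (up to 6 a comparison) and the 3 most similar genes, of which 1 is not reported here. The genes and lists were chosen with earlier results of these data known, so the lists are no independent evidence. Promoter sequences came from RefSeq (GRCr8). Alternatives were RLE scaling, no filter on low counts, a replicate block, an unadjusted p, no limit on fold, only the groups compared, DESeq2 1.42.0 and each rat left out.

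Rats of a group are taken as separate animals from the labels, and the spread between their counts was 37.4 to 208 times the counting variance. Depth was 16813949 to 34692306 reads. The scripts were tested on simulated data with known changes in SAP-24h vs Sham-24h. There 33 of 102 genes with a true 2-fold change were called, and 51 passed the adjusted p alone. Of those with a 4-fold change 75 of 95 were called, and 0 unchanged genes were. A gene without a call can therefore still differ by 2-fold.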

Additional observations from a re-analysis of the deposited data

How the results depend on the processing

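None of the 20 called differences changed direction in the 220 values of their alternatives, 176 stayed called and 44 did not (32 of 120 with a rat left out, 12 of 100 with another setting). Counts of genes called changed by over 1.5 times as follows. RLE scaling, which moved the median of all genes by at most 0.0326 (log2), gave 3 in SAP-24h vs Sham-24h and 0 in Con-24h vs Sham-24h, and no filter gave 0 in the latter. An unadjusted p, with the limit of 2-fold kept, gave 1 in SAP-6h vs Sham-6h, 2 in DEX-6h vs SAP-6h, 1 in Emo-6h vs SAP-6h, 3 in Emo-6h vs DEX-6h, 2 in SAP-6h vs Con-6h, 4 in SAP-24h vs Sham-24h, 5 in DEX-24h vs SAP-24h, 2 in Emo-24h vs SAP-24h, 2 in Con-24h vs Sham-24h, 2 in DEX-24h vs Sham-24h, 3 in SAP-24h vs SAP-6h, 2 in DEX-24h vs DEX-6h, 1 in Emo-24h vs Emo-6h, 2 in Con-24h vs Con-6h and 1 in DEX vs SAP by time. No limit on fold gave 2 in SAP-24h vs Sham-24h and 1 in Emo-24h vs Emo-6h. Fitting only the groups compared gave 2 in DEX-6h vs SAP-6h, 2 in Emo-6h vs DEX-6h, 0 in SAP-24h vs Sham-24h, 1 in DEX-24h vs SAP-24h, 3 in SAP-24h vs Con-24h, 0 in Con-24h vs Sham-24h, 2 in DEX-24h vs DEX-6h and 1 in Emo-24h vs Emo-6h, with fewer samples in each fit. DESeq2 gave 1 in SAP-6h vs Sham-6h, 2 in Emo-6h vs DEX-6h, 4 in SAP-24h vs Sham-24h, 0 in Con-24h vs Sham-24h, 1 in Emo-24h vs Emo-6h and 1 in Con-24h vs Con-6h; it gave no adjusted p for 3 of the values. Elsewhere the cause was not tested.

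With a rat left out, the count ranged from 0 to 1 in DEX-6h vs SAP-6h, Emo-6h vs DEX-6h, SAP-6h vs Con-6h and Con-24h vs Sham-24h, from 0 to 3 in SAP-24h vs Sham-24h, from 1 to 3 in DEX-24h vs SAP-24h, from 1 to 2 in Emo-24h vs DEX-24h and DEX-24h vs Sham-24h, and from 0 to 2 in Emo-24h vs Emo-6h (Il18 and Casp1 without Emo-6h replicate 3). The 21 calls of the other pathway genes, whose alternatives were chosen after seeing the data, were 56 with an unadjusted p, 51 with no limit on fold, 12 in fits of the groups compared and 32 with DESeq2. They ranged from 12 without SAP-24h replicate 1 to 35 without SAP-24h replicate 2. Of the 30 most similar genes, 15 were shared with a ranking by Spearman rho, 23 with a pseudocount of 0.1 and 24 with TMM log2 CPM.

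A replicate block gave 2 called in Emo-6h vs DEX-6h and 2 in SAP-24h vs Sham-24h, the added gene being Il1a (adjusted p = 0.0340 and 0.0422). In DEX-24h vs SAP-24h it called Il1a (0.0352) and lost Il1rn (0.0548), and in SAP-24h vs Con-24h it added Il1a (0.0483). The labels give only replicate numbers, and same-numbered rats correlated at -0.363 to 0.359, with every pair over 0.1 in 1 of 21 comparisons, so the numbers were not taken to pair the rats. In 1 of the 21 comparisons every rat correlated best with its own number.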

Other observations

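Among the 45 pairs of the 10 genes, Pearson r of log2(FPKM + 1) over the 30 libraries after removal of group means was highest for Il1b with Nlrp3 (0.79) and Il1r1 with Il1rap (0.79), followed by Il1r2 with Il1rap (0.75). Il1b with Il1rn was at 0.73. The neighbours Il1a and Il1b stood at 0.20 within groups and at -0.01 over all libraries. Il18 and Casp1 were at 0.64 with each other, while Casp1 with Nlrp3 was at 0.01 and Il18 with Nlrp3 at -0.02. Il33 was at 0.57 with Nlrp3 and at 0.09 with Il1r2. These values describe 30 libraries that share groups, depth and cell content, and carry no test.

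From 6 to 24 hours in the Con rats, which had saline and no taurocholate, Il1r2 (-2.49 ± 0.85, adjusted p = 0.273) and Nlrp3 (-1.26 ± 0.30, adjusted p = 0.116) had an unadjusted p under 0.05 without a call by edgeR (Il1r2 was -1.42 without Con-6h replicate 2), and DESeq2 gave Nlrp3 an adjusted p of 0.0115. Over the same interval 7 of the 11 neutrophil markers were lower at an unadjusted p under 0.05, with a median of -1.75, and their part was not tested.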
